A study of Mus musculus with 42 samples.

Results

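The genes of interleukin-1 (IL-1) and of the inflammasome were followed in a set of 42 ChIP-seq libraries from mouse bone marrow-derived macrophages (BMDMs). The 9 genes were chosen by symbol among 21884 protein-coding genes: Il1a, Il1b, Il1rn, Il18, Nlrp3, Casp1, Casp4, Gsdmd and Pycard. For each gene the amount of RNA polymerase II (Pol II) was taken over the gene body with 500 bp on either side. H3K27ac, the acetylated form of histone H3 found at promoters and enhancers in use, was taken within 2500 bp of the gene start. All 9 genes were listed with Pol II and with H3K27ac in every library of both antibodies, so all 9 entered every comparison.

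The cells came from male C57Bl6/J mice of 6 to 12 weeks and had been grown for 7 days in L929-conditioned medium. Wild-type (WT) littermates were compared with Nur77-KO mice (KO below), which lack the nuclear receptor Nur77, encoded by Nr4a1, in the whole body. According to the methods, the floxed locus had been deleted by a Cre transgene under the CMV promoter and Cre had then been bred out, while the genotype label of the KO samples reads only "cre". BMDMs of each genotype were left without lipopolysaccharide (LPS) or received 100 ng/ml LPS for 1 or 18 h. Each of the 6 groups held 3 libraries for Pol II, 3 for H3K27ac and 1 input library. The study's methods call the replicates biological. Neither they nor the labels say whether the numbered libraries came from separate animals or from separate cultures, so p-values measure the spread between these libraries, part of which may be technical.

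IL-1α and IL-1β are the cytokines that start fever and the recruitment of leukocytes, and the receptor antagonist encoded by Il1rn occupies the same receptor without signalling. IL-1β and IL-18 are made as inactive precursors. In the canonical inflammasome, a sensor such as NLRP3 assembles with the adaptor ASC, encoded by Pycard, and activates caspase-1, which cuts both precursors. Caspase-1 and caspase-4 (also called caspase-11 in the mouse), the latter a cytosolic sensor of LPS itself, also cut gasdermin D, which opens pores in the cell membrane. In macrophages the precursor of IL-1β and NLRP3 are known to be induced by LPS, the step called priming.

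The deposited values were normalized tags of regions found separately in each library, a level of signal that is scaled to the same number of tags in every library. Tags of a region were shared out evenly along its length, so a gene inside a long region received the mean density of that region. In all 18 Pol II libraries Casp1 and Casp4 shared a single region, 14.7 to 15.9 kb long at 0 h and 42.2 to 43.6 kb after LPS, and Pycard lay in a region of 28.4 to 32.2 kb that reached far beyond the gene. After LPS, Pol II of Casp1 and Casp4 therefore cannot be told apart. At 0 h the shared region reached only the upstream part of Casp4, whose window was covered to 25.0 to 35.3% in all, and the genes differed, at 44.9 tags per kb over Casp1 and 9.44 over Casp4 in WT. Pol II of Pycard cannot be told apart from that of the rest of its region. The Pol II region that covered most of Il18 in a library reached Bco2 in 16 of 18 libraries and Tex12 in 11 of 18. In the other 2, KO 18 h replicates 2 and 3, another region lay over the Il18 start, from -3.96 to 8.16 kb and from -3.62 to 6.29 kb. These span the stretch that reached both neighbours in WT at 18 h. The H3K27ac regions of Il18 reached Bco2 in all 18. A single H3K27ac region of 16.2 to 17.6 kb spanned Casp1 and the start of Casp4 in the KO libraries at 18 h. The Pol II region of Nlrp3 reached Olfr222 in all 18.

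The Pol II libraries held about 21730500 to 36124600 tags in WT and 23200000 to 35207700 in KO, and the H3K27ac libraries about 13505300 to 31147100 in WT and 23562600 to 55368000 in KO. In Pol II, libraries of a group correlated at 0.985 or above across 10639 genes. Among the H3K27ac libraries the KO replicates 1 at 1 h and at 18 h stood apart: KO replicate 1 at 1 h correlated with replicates 2 and 3 at 0.912 and 0.913, where those correlated with each other at 0.991, and KO replicate 1 at 18 h did so at 0.914 and 0.915 against 0.993. On values centred on each gene's mean, the library labelled KO 1 h replicate 1 correlated at 0.87 with the WT 1 h mean and at 0.24 with the other libraries of its own label. KO 1 h replicates 2 and 3 correlated with the WT 1 h mean at 0.18 and 0.19. At other times KO libraries were close to WT: at 0 h they correlated with the WT 0 h mean at 0.88 to 0.89. KO 18 h replicates 2 and 3 correlated with the WT 18 h mean at 0.84. Which of the KO 1 h libraries departs from its condition was not tested. The library labelled KO 18 h replicate 1 correlated on this scale at 0.37 with the others of its label and at 0.31 with the WT 18 h mean. It correlated at 0.29 and 0.30 with KO 1 h replicates 2 and 3, where KO 18 h replicates 2 and 3 did so at -0.34 to -0.39. Whether a label is wrong was not tested. The H3K27ac comparisons between the genotypes at 1 and 18 h are therefore given with and without these libraries. Pol II over Nr4a1 at 0 h was 188 to 208 normalized tags in WT and 70.2 to 87.8 in KO, at 1 h 23.0 to 30.4 in WT and 33.5 to 39.0 in KO (log2 difference 0.36, limma adjusted p = 0.0892), and at 18 h 0 to 7.46 in WT and 0 in all KO libraries. Since the sources do not say which part of the gene was deleted, these tags do not check the genotype. All 8 macrophage markers held Pol II in every library. S100a9, Elane, Mpo and Ly6g of neutrophils, Cd3e, Cd3g, Ncr1 and Cd8a of lymphocytes, and Cd209a and Siglech of dendritic cells were listed at 0 in all Pol II libraries. Other markers of these cells were not: the B cell gene Cd79a (33.9 to 115.8) and Cd4 (1.21 to 56.4) were listed in all 18, Ms4a1 at up to 72.4, and S100a8, Ngp, Camp and Ltf at 0 to 45.3. Of the dendritic cell markers Xcr1 held 219 to 1349 in every library, and their sum at 18 h was 381 to 461 in WT and 408 to 962 in KO. The summed lymphocyte markers were lower in KO at 18 h (99.2 to 107.6 against 154.7 to 166.8 in WT) and higher at 1 h (62.7 to 80.3 against 44.1 to 54.2). In H3K27ac the summed neutrophil and progenitor markers were higher in KO at 0 h (161.8 to 178.9 against 72.4 to 86.4 in WT) and at 1 h (105.4 to 123.7 against 59.6 to 70.4). The summed lymphocyte markers in H3K27ac were lower in KO at 0 h (170.1 to 243.4 against 262.0 to 286.7 in WT). They were also lower at 18 h (158.9 to 242.3 against 325.3 to 363.2) and overlapped at 1 h. Ms4a1 was the only one of them listed at 0 h. In Pol II the summed macrophage markers were lower in KO than in WT at 1 h (25187 to 25791 against 33812 to 35799.6) and at 18 h (38831 to 41858 against 45089 to 47598). Adgre1 weighed most in these sums, as it had a median of 17635 over the 18 libraries and the other markers had medians of 526 to 5799. By gene, 4 of the 8 were called lower in KO and 1 higher at each of these times, with medians of -0.29 and -0.16 on the log2 scale. The part of these markers in the results below was not tested.

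Promoters were read from RefSeq (GRCm38.p6) for 8 of the 9 genes, Gsdmd having no entry, from 250 bases before to 50 bases after each annotated start. The windows printed are those of the 4 cytokine and antagonist genes, whose Pol II differences at 18 h were the largest of the 9, with both starts of Il1rn on which its H3K27ac result turns, and the first windows of Nlrp3, Casp4 and Pycard, which held a searched motif. Motifs are in capitals.
Il1a, chr2:129309923-129310222, minus strand: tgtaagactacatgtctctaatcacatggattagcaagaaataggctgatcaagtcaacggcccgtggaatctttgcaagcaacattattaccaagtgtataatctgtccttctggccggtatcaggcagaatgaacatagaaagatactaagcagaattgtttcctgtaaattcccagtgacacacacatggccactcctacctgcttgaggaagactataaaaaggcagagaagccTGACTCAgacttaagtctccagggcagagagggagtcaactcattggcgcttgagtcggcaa
Il1b, chr2:129371090-129371389, minus strand: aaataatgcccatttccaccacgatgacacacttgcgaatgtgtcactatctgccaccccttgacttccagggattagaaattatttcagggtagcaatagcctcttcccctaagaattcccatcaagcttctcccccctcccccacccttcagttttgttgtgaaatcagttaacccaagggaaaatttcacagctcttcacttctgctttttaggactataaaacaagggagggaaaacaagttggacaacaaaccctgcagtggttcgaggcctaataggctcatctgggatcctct
Il1rn, upstream start, chr2:24336610-24336909, plus strand: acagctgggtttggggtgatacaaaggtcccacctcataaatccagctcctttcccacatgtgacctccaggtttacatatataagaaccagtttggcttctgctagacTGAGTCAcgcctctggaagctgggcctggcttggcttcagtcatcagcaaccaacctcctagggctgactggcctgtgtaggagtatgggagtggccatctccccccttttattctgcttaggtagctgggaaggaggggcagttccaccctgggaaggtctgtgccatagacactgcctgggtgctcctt
Il1rn, downstream start, chr2:24345121-24345420, plus strand: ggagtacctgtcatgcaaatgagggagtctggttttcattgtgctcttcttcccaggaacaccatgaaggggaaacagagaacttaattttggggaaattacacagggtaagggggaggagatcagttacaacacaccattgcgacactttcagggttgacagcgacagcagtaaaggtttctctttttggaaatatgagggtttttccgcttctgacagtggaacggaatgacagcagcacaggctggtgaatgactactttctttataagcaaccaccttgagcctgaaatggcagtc
Il18, chr9:50554450-50554749, plus strand: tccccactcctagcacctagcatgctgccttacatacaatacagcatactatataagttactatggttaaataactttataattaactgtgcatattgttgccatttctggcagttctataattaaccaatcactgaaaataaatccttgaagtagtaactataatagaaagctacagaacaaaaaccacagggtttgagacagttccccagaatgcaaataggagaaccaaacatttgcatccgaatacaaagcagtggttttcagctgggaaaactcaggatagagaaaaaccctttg
Nlrp3, chr11:59541319-59541618, plus strand: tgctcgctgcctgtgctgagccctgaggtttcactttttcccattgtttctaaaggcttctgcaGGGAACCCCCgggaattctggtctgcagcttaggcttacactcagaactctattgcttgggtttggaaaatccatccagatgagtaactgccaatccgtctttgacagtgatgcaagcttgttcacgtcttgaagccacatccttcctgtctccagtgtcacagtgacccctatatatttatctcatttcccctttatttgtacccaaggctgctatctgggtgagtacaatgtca
Casp4, chr9:5308599-5308898, plus strand: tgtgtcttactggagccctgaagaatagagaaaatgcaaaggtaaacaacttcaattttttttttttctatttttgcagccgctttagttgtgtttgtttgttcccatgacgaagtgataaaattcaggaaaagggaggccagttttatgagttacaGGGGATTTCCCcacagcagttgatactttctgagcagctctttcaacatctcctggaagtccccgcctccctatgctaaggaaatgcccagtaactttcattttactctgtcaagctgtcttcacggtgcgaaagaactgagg
Pycard, chr7:127993818-127994117, minus strand: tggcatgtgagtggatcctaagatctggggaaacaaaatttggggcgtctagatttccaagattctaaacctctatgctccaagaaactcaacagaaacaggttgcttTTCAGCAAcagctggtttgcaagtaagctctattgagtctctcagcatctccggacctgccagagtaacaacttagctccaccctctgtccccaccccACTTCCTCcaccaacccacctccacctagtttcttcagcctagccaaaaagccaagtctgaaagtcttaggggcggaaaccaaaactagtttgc
The motifs were searched on both strands, and each was compared with its share among 32851 promoter windows of the same length. The AP-1 letters TGANTCA stood 12 bases upstream of the Il1a start and 141 bases upstream of the upstream Il1rn start, and were held by 7.81% of all windows. NF-kB letters stood 186 bases upstream of Nlrp3 and, as overlapping matches, 93 and 92 bases upstream of Casp4, and were held by 4.51% of all. Pycard held the C/EBP letters TTGCNNAA (10.8% of all) 142 bases and the PU.1 letters GAGGAAGT (3.20% of all) 44 bases upstream of its start. NBRE letters AAAGGTCA, the element that Nur77 binds as a monomer, were in none of the 8 genes' windows and in 1.51% of all, and the IRF letters GAAANNGAA were in none and in 8.56% of all. The Il1b, Il18 and Casp1 windows held none of the 6 motifs. These matches describe letters in short windows only.

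At 18 h of LPS, Pol II was higher in KO than in WT over the cytokine genes and the caspase genes and lower over Pycard. Of the 9 genes, 7 were called at an adjusted p under 0.05 (limma, Benjamini-Hochberg over 12795 genes tested), 6 of them higher and 1 lower. Among all genes tested 21.1% were called, of which 35.9% were higher in KO. The median difference of the 9 genes was 0.31 on the log2 scale, beside -0.10 over all genes. Log2 differences here are on the log2(normalized tags + 10) scale.

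Il1b, the gene of the IL-1β precursor (ENSMUSG00000027398, chr2:129364570-129371139, minus strand), held 239.6, 235 and 248 normalized tags of Pol II in the WT libraries at 18 h. In the KO libraries it held 400.0, 386 and 461. All 3 KO libraries lay above all 3 WT libraries, with a mean 1.72-fold higher and a log2 difference of 0.76 (SE 0.13, limma adjusted p = 3.2e-04). The direction at 0 h was the opposite: 109.7, 103 and 112 in WT and 54.0, 93.1 and 80.1 in KO, a log2 difference of -0.49 (SE 0.13, limma adjusted p = 0.0249). This call at 0 h was lost under 6 of 15 alternatives, among them the fits without replicate 1 (-0.28, limma adjusted p = 0.182) and without replicate 3 (-0.51, limma adjusted p = 0.177). After 1 h WT reached 7297, 7538 and 7675 and KO 7259, 6022 and 6209. KO libraries were all below WT at 1 h, but the log2 difference of -0.21 was not called (adjusted p = 0.177 by limma).

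Il1a, which encodes IL-1α (ENSMUSG00000027399, chr2:129299610-129309972, minus strand), lies beside Il1b. Its Pol II at 18 h was 574, 608 and 582 in WT and 958, 959.8 and 998 in KO, again without overlap. The KO mean was 1.65-fold higher, with a log2 difference of 0.72 (SE 0.14, limma adjusted p = 1.01e-03). At 0 h the gene was nearly empty, at 19.0, 36.1 and 18.8 in WT and 27.2, 30.2 and 35.2 in KO, while the input libraries held 57.5 in WT and 49.2 in KO over the same window. At 1 h it held 8018, 8176 and 8662 in WT and 10238, 8481 and 8707 in KO. Genotypes overlapped at both of these times and neither difference was called (0.27 and 0.14 on the log2 scale, adjusted p = 0.286 and 0.418 by limma). After LPS, in 12 of the 18 libraries, a single region covered Il1a and reached the neighbouring Ckap2l.

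Il1rn, the receptor antagonist gene (ENSMUSG00000026981, chr2:24336853-24351494, plus strand), carried more Pol II per kb before LPS than either agonist gene, at 42.4 tags per kb in WT beside 14.3 for Il1b and 2.17 for Il1a. It held 645, 673 and 670.3 in WT and 637, 634 and 573 in KO at 0 h. At 1 h it held 1197, 1050.4 and 1126 in WT and 1491, 1439 and 1417 in KO, a log2 difference of 0.36 (SE 0.06, limma adjusted p = 2.23e-04), which on libraries centred on their median was 0.11 and not called (limma adjusted p = 0.178). At 18 h WT was at 572, 552 and 535 and KO at 923, 940.1 and 975, a log2 difference of 0.76 (SE 0.06, limma adjusted p = 1.2e-07). WT thus ended below its level before LPS, at a log2 change of -0.26 from 0 to 18 h, while KO ended above it, at 0.62. Within 500 bp of the start the KO change was the opposite, at -0.83 (limma adjusted p = 0.0184). In KO at 0 h a single region spanned the gene, so its start took the mean density, 39.3 tags per kb. At 18 h the KO regions were split and the start held 17.8. The WT start went from 33.1 to 16.1 tags per kb. The fall at the KO start therefore cannot be told from a change in how regions were listed. Of the 9 genes Il1rn alone differed between the genotypes in the same direction at both 1 and 18 h with both differences called.

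Il18, which encodes the IL-18 precursor (ENSMUSG00000039217, chr9:50554827-50581840, plus strand), held 347, 351 and 378 in WT at 18 h and 684, 737 and 721 in KO. The KO mean was 1.99-fold higher, the largest ratio of the 9 genes at that time (log2 difference 0.97, SE 0.17, limma adjusted p = 4.83e-04). At 1 h the genotypes overlapped, at 230.2, 241 and 232 in WT and 226, 249 and 235 in KO. At 0 h both were near 0, at 22.6 to 52.1 over all 6 libraries, below the 91.6 and 127.8 tags that the WT and KO inputs held over this window. No Pol II level above input can be read for Il18 at 0 h. Over this window the inputs held 173 tags in WT and 129 in KO at 1 h, and 121 in WT and 31.3 in KO at 18 h. The single inputs at 18 h also differed as a whole, with 95554 regions in WT and 27554 in KO.

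At Il18 the genotypes differed in the length of gene that was listed, while the mean density over the listed stretches was close. In bulk libraries a longer stretch of listed signal in each cell and more cells with signal there cannot be told apart. Regions covered 11.1 to 13.5 kb of the 28.0 kb window in WT at 18 h and 22.7 to 25.4 kb in KO. Per covered kb the signal was 29.0 ± 2.05 tags in WT and 29.3 ± 0.76 in KO (SD, n = 3). Within 500 bp of the start it was 50.6 tags per kb in WT and 52.2 in KO, and over the rest of the gene 11.4 in WT and 24.5 in KO. The region at the far end of the gene, chr9:50573539-50586918, held a mean of 136 in WT and 279 in KO (log2 difference 0.98, limma adjusted p = 0.0073). With the window set to 500 bp around the start the log2 difference of Il18 was 0.03 (limma adjusted p = 0.94). At Il1rn the same split gave 16.1 and 17.8 tags per kb at the start and 36.7 and 63.4 over the rest, and its difference in the narrow window was 0.09 (limma adjusted p = 0.932). The densest Il1rn region began 3.47 to 3.99 kb downstream of the start in KO and 7.64 to 7.77 kb downstream in WT. Il1a and Il1b were covered nearly throughout in both genotypes at 18 h, and there the density itself differed: 51.7 against 85.5 tags per covered kb over Il1a and 32.6 against 55.8 over Il1b. In the narrow window their differences were 0.63 and 0.66 and not called (limma adjusted p = 0.0728 and 0.099). The start and the rest of a gene often lay in 1 region, where sharing makes them equal. The split per kb was therefore described and not tested, and the tests in the narrow window carry the same limit.

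**Figure D1:**
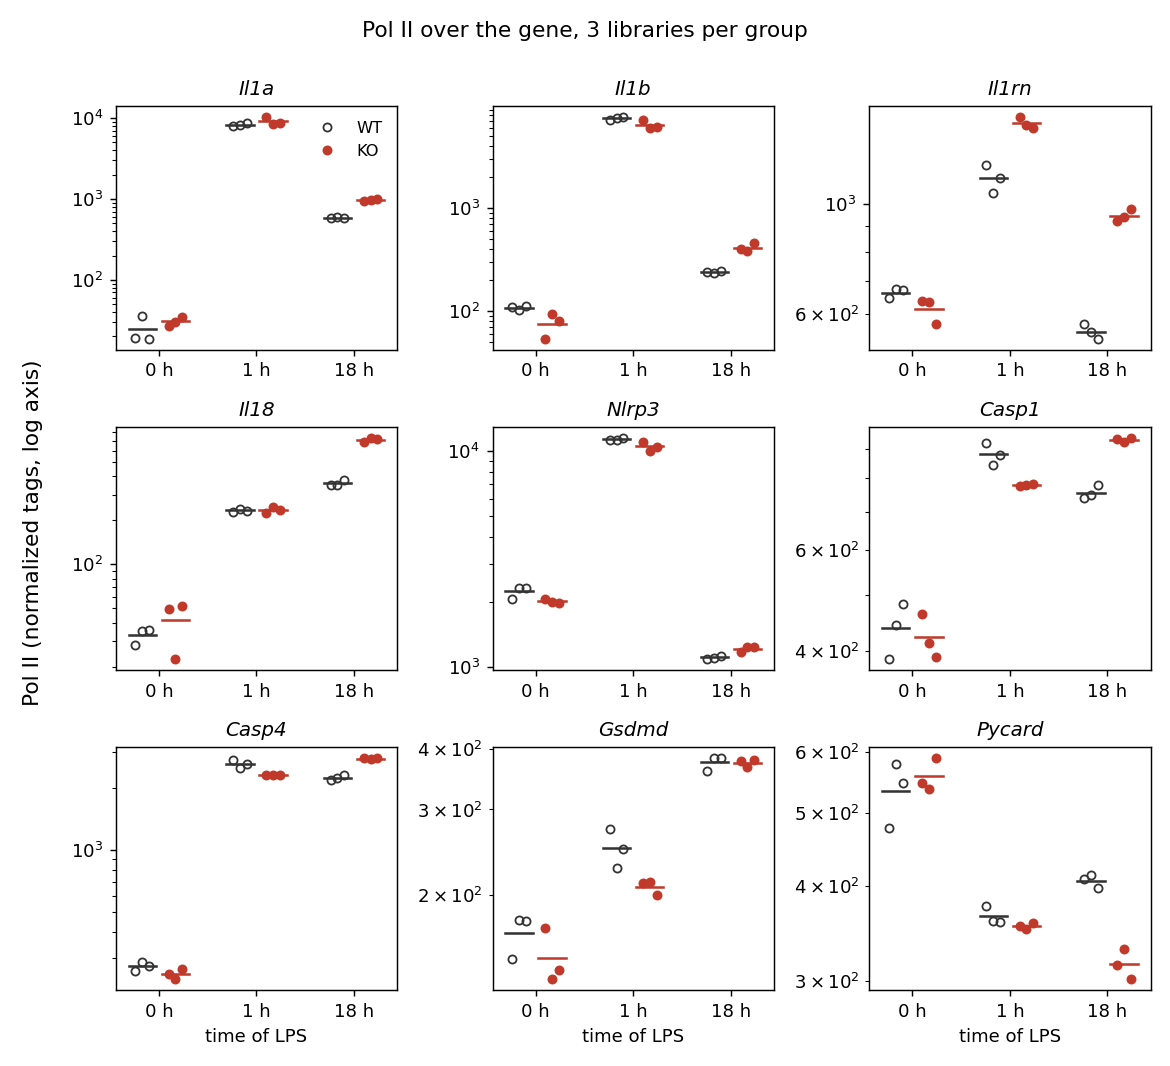
Pol II over each gene (normalized tags, log axis) by hours of LPS, with open points for WT libraries, filled points for KO libraries and a line at each group mean of 3 libraries. At 18 h the KO points lie above all WT points for 7 of the genes and below them for Pycard, and for Gsdmd the genotypes overlap.

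Nlrp3, the sensor whose own induction is part of priming (ENSMUSG00000032691, chr11:59541568-59566956, plus strand), is spanned by a single region of Pol II together with Olfr222. At 1 h it held 11244, 11236 and 11514 in WT and 11032, 10000.2 and 10416 in KO. At 18 h it was at 1089.6, 1105 and 1128 in WT and 1177, 1232 and 1243 in KO. KO libraries lay above WT at 18 h and below WT at 0 and 1 h, and none of the 3 differences was called (0.14, -0.15 and -0.11 on the log2 scale, limma adjusted p = 0.0779, 0.0975 and 0.0873). Over the whole merged region, chr11:59536648-59572870, the same differences were called, at 0.16 at 18 h, -0.14 at 0 h and -0.13 at 1 h (limma adjusted p = 0.0118, 0.0396 and 0.0189), beside 15.2% of all merged regions called at 0 h and the shares given below for 1 and 18 h. Both genotypes fell below their own level at 0 h, which was 2071, 2311 and 2327 in WT and 2068, 1991 and 1968 in KO.

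Casp1 encodes the caspase that cuts the IL-1β and IL-18 precursors (ENSMUSG00000025888, chr9:5298517-5307265, plus strand), and Casp4 lies immediately downstream (ENSMUSG00000033538, chr9:5308828-5336783, plus strand). At 18 h Casp1 held 739.5, 748 and 778 in WT and 935, 925 and 942 in KO. Casp4 held 2197, 2222 and 2311 in WT and 2778, 2749 and 2799 in KO. Each KO mean was 1.24-fold higher, with log2 differences of 0.30 for Casp1 (SE 0.08, limma adjusted p = 9.51e-03) and 0.31 for Casp4 (SE 0.06, limma adjusted p = 9.22e-04). The shared region gave both genes the same density, 77.5 tags per kb in WT and 95.8 in KO, so these are not separate results. Casp1 was not called without replicate 2 (limma adjusted p = 0.124) or without replicate 3 (limma adjusted p = 0.0556). At 1 h the direction was the opposite, at 2738, 2507 and 2608 over Casp4 in WT and 2301, 2312 and 2319 in KO (log2 difference -0.18, SE 0.06, limma adjusted p = 0.0181), with Casp1 at -0.18 and not called (adjusted p = 0.0708 by limma). The call of Casp4 at 1 h was lost without replicate 1, 2 or 3 (limma adjusted p = 0.116, 0.0638 and 0.0946).

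Pycard, the gene of the adaptor ASC (ENSMUSG00000030793, chr7:127989708-127993867, minus strand), was the only gene of the 9 called lower in KO at 18 h. It held 408, 413 and 397 in WT and 315, 331 and 302 in KO, a mean of 0.778 of WT (log2 difference -0.35, SE 0.07, limma adjusted p = 2.23e-03). At 0 h the genotypes overlapped, at 477, 578 and 547 in WT and 546, 537 and 590.2 in KO. Without replicate 3 the difference at 18 h was not called (limma adjusted p = 0.0579). Gsdmd, which encodes gasdermin D (ENSMUSG00000022575, chr15:75862327-75867408, plus strand), held 360.5, 383 and 383 in WT and 377, 366 and 379 in KO at 18 h, a log2 difference of 0.00 with a 95% interval from -0.21 to 0.20. At 1 h it held 274, 227 and 249 in WT and 212, 212 and 200.01 in KO (log2 difference -0.25, SE 0.10, limma adjusted p = 0.0463), a call that was lost under 9 of 15 alternatives, with adjusted p-values of 0.101, 0.0808 and 0.238 without replicate 1, 2 or 3.

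**Figure D2:**
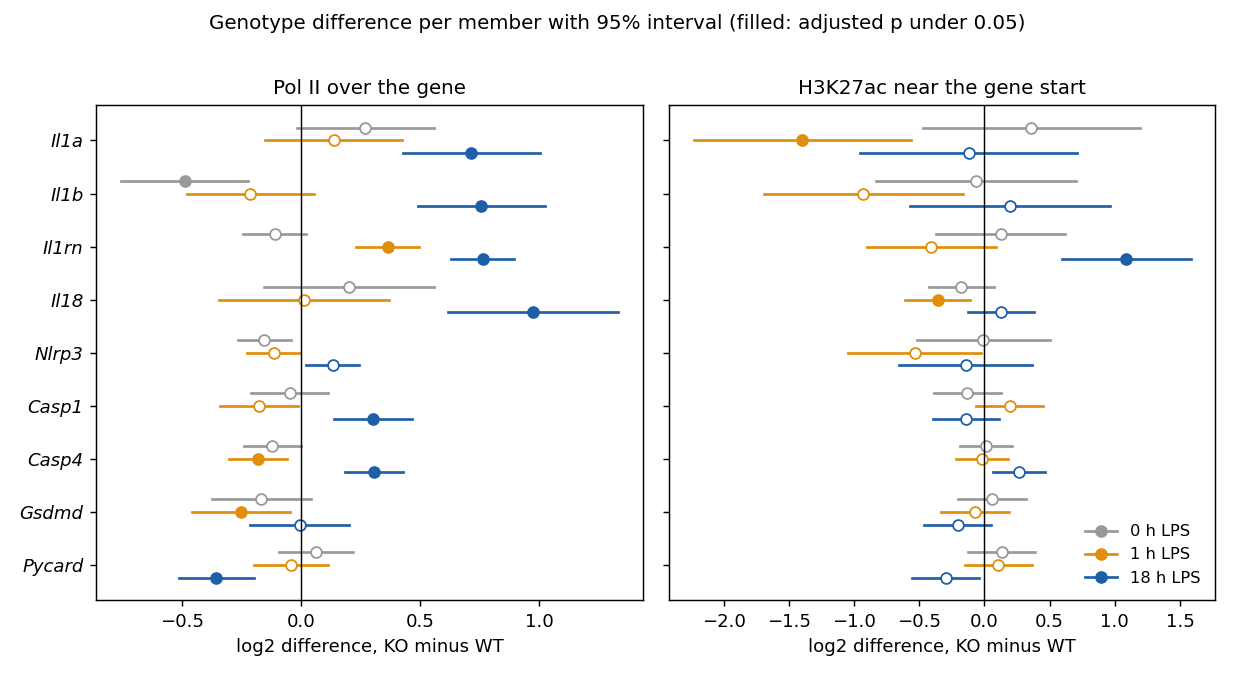
Log2 difference of KO minus WT for each gene with its 95% interval, not adjusted for the number of genes, at 0, 1 and 18 h of LPS, for Pol II (left) and H3K27ac (right); filled points had an adjusted p under 0.05. For Pol II the points at 18 h lie to the right of 0 for 6 called genes and to the left for Pycard.

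At 1 h and 0 h the genotypes differed at fewer of these genes. At 1 h 3 of the 9 genes were called, Il1rn higher and Casp4 and Gsdmd lower in KO, while 45.8% of 12068 genes were called, of which 83.7% were higher. The median of the 9 genes was -0.11 beside 0.24 over all genes. When each library was centred on its own median, the median over all genes at 1 h moved from 0.24 to -0.01 and 6 of the 9 genes were called, beside 37.0% of all genes on that scale. At 0 h 1 of 9 was called, Il1b, beside 6.97% of all genes. At 0 h all 3 KO libraries lay below all 3 WT libraries for 3 of the 9 genes and above for none, beside 6.94% and 14.1% of all genes tested. At 1 h they lay below for 6 and above for 1, beside 10.6% and 45.9%, and at 18 h below for 1 and above for 7, beside 30.4% and 14.0%.

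The change brought by LPS was compared between the genotypes by an interaction term. At 18 h against 0 h the change differed for 7 of 9 genes, beside 14.8% of all genes, and at 1 h for Il1rn alone, beside 18.5% of all. Il1b rose from 0 to 18 h by 1.09 on the log2 scale in WT and by 2.34 in KO, a difference of 1.25 (SE 0.18, limma adjusted p = 1.5e-04). Its difference at 0 h, where KO was lower, forms part of this value. Il1rn differed by 0.87 (SE 0.09, limma adjusted p = 4.31e-06), but within 500 bp of its start by -0.12 (limma adjusted p = 0.919). The KO start of Il1rn at 0 h took the mean of a region over the whole gene. Il18 differed by 0.77 (SE 0.24, limma adjusted p = 0.0387), a value that rests on a 0 h level below input and whose call was lost under 8 of 15 alternatives. Casp4 differed by 0.43 (SE 0.08, limma adjusted p = 1.79e-03) and Casp1 by 0.35 (SE 0.11, limma adjusted p = 0.0397), the latter a call lost under 6 of 15 alternatives. Nlrp3 fell from 0 to 18 h by 1.01 in WT and by 0.72 in KO, a difference of 0.29 (limma adjusted p = 0.0148). Pycard fell by 0.38 in WT and by 0.80 in KO, a difference of -0.42 (limma adjusted p = 0.0119). Il1a, with 0.44 (limma adjusted p = 0.135) from a 0 h level below input, and Gsdmd, with 0.16 (limma adjusted p = 0.472), were not called. Without replicate 1, 2 or 3 in turn, 3 to 5 genes were past the threshold at 18 h, beside 7.54 to 8.27% of all genes; Il18 was lost in each of these fits and Il1b and Il1rn in none.

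The response to LPS itself moved nearly all of these genes in both genotypes. In WT all 9 were called at 1 h, 8 higher and Pycard lower, beside 87.0% of all genes, of which 21.3% were higher. The change of Pycard was -0.53 on the log2 scale, and 0.26 on median-centred libraries. The median change of the 9 genes in WT at 1 h was 2.34 and that of all genes -0.82. In KO all 9 were called as well, 8 higher, beside 82.8% of all, with medians of 2.32 and -0.62. Il1a rose to a mean of 8285 in WT and 9142 in KO, and no fold is given because its level at 0 h lay below input. Il1b rose 69.5-fold in WT and 85.8-fold in KO, Casp4 9.58-fold and 9.21-fold, and Nlrp3 5.07-fold and 5.22-fold. Il1rn rose less, 1.70-fold in WT and 2.36-fold in KO. Per kb of window, the order of the levels in WT at 1 h ran from Il1b (991 tags per kb) over Il1a (729), Nlrp3 (429), the caspase region (90.4), Il1rn (71.9), Pycard (70.7) and Gsdmd (41.1) to Il18 (8.36); of these neighbours Il1rn and Pycard differed by less than the spread of Il1rn.

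The time courses divided the genes. Il1a, Il1b and Nlrp3 peaked at 1 h and were at 0.0710, 0.0321 and 0.0977 of that level in WT at 18 h. Il18 and Gsdmd went on rising, by 1.53-fold and 1.502-fold from 1 to 18 h in WT and by 3.02-fold and 1.80-fold in KO, and when each library was centred on its median or quantile normalized these 2 WT changes turned to -0.28 and -0.30, or to -0.12 and -0.11, on the log2 scale. At 18 h against 0 h all 9 genes were called in both genotypes, beside 66.6% of all genes in WT and 70.2% in KO: 6 higher and 3 lower (Il1rn, Nlrp3 and Pycard) in WT, 7 higher and 2 lower (Nlrp3 and Pycard) in KO. From 1 to 18 h 8 were called in each genotype, beside 85.4% in WT and 79.5% in KO. Casp1 and Casp4 fell between these times in WT by 0.22 and rose in KO by 0.26 on the log2 scale, and on median-centred libraries this change was -0.22 in KO for both.

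**Figure D3:**
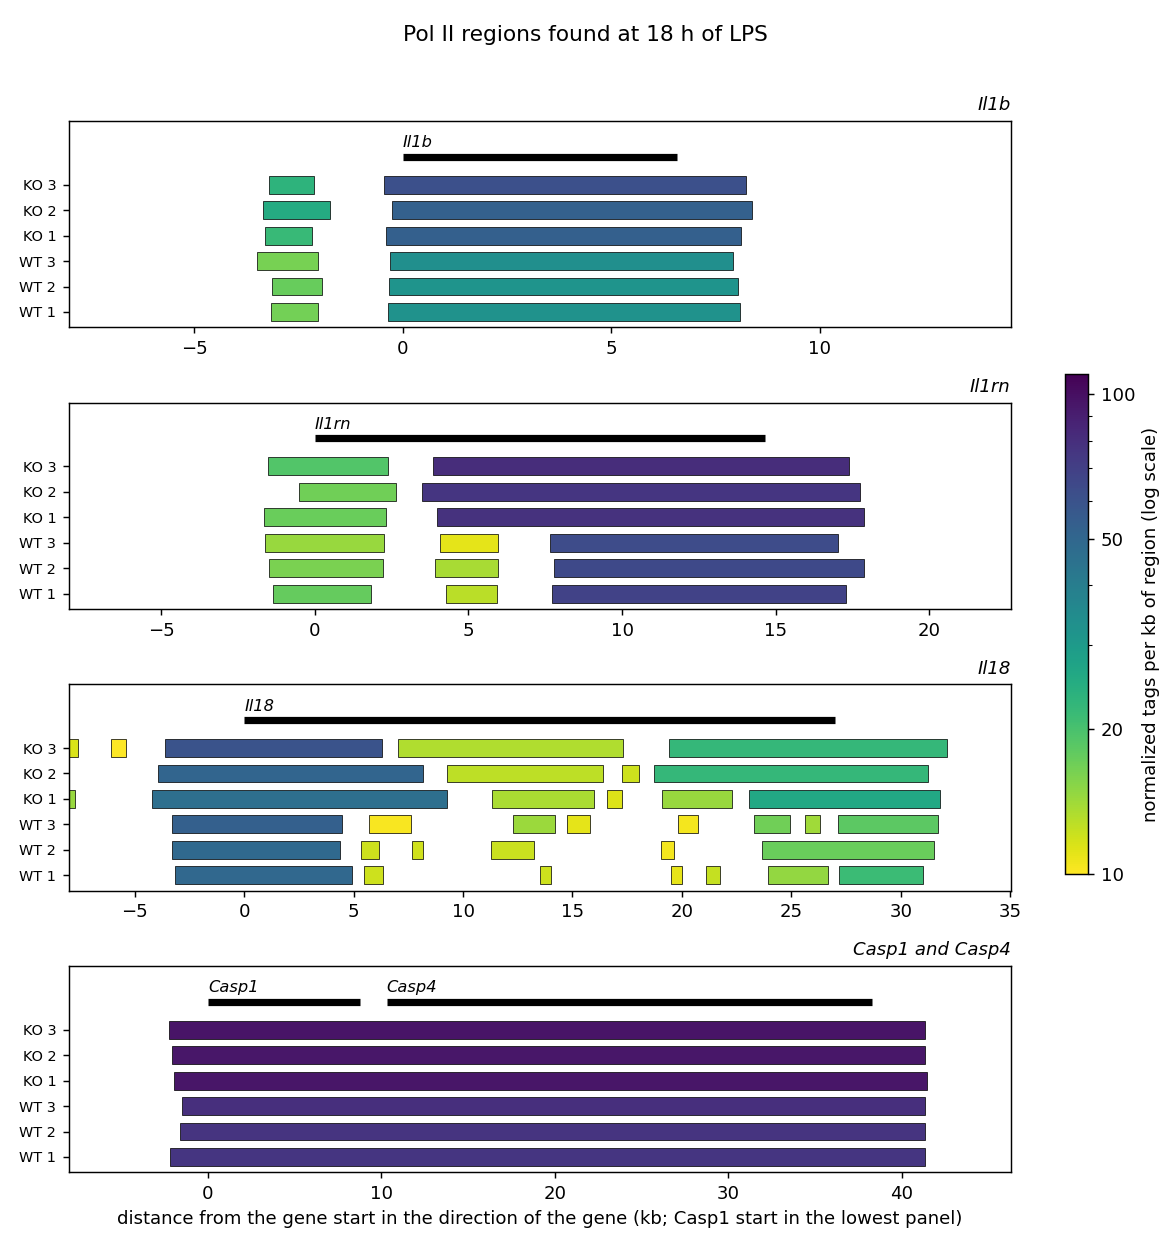
Pol II regions of each library at 18 h, drawn as bars by distance from the gene start (kb) and coloured by normalized tags per kb on a log scale, for Il1b, Il1rn, Il18 and the caspase genes, with the gene as a black line. Over Il18 the KO regions cover more of the gene, as they do over Il1rn (89.4 to 94.6% against 72.8 to 77.7% of its window). The KO regions are denser over Il1b and over the downstream part of Il1rn (76.0 to 81.4 against 63.3 to 68.7 tags per kb), while near the Il1rn start the densities of the genotypes overlap.

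H3K27ac near the starts rose with LPS at most of these genes. In WT all 9 genes were called at 1 h, 8 higher and Pycard lower, beside 54.7% of all genes, and at 18 h 6 were called, all higher, beside 50.0%. Il1b rose from 96.7, 66.4 and 68.9 normalized tags at 0 h to 515, 424 and 476 at 1 h, and was at 128, 155 and 211 at 18 h. Il1a rose from 55.2, 59.8 and 60.1 to 418, 372 and 304, and was at 366, 376 and 345 at 18 h, a log2 change of 0.00 from 1 h that was not called. Nlrp3 carried the most H3K27ac at 0 h (1018, 1055 and 999) and rose to 1628, 1587 and 1564. In WT from 1 to 18 h 6 genes were called (2 higher, 4 lower; 57.7% of all). In KO 7 were called at 1 h (47.0% of all), 8 at 18 h (52.7% of all) and 2 from 1 to 18 h (44.5% of all), groups that hold the libraries that stood apart.

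Between the genotypes H3K27ac differed at few of the 9 genes, and the calls depended on which libraries or which start was used. No gene was called at 0 h by limma, none at an unadjusted p under 0.05, where 0.771% of all genes were called. At 1 h Il1a and Il18 were called lower in KO, beside 18.5% of all genes. Il1a held 418, 372 and 304 in WT and 329, 80.8 and 81.2 in KO (log2 difference -1.40, limma adjusted p = 0.0259). Without KO replicate 1 its difference was -2.03 (limma adjusted p = 2.8e-05), and without KO replicates 2 and 3 it was -0.13 (limma adjusted p = 0.942). The latter fit leaves 1 KO library at 1 h, which is assumed to vary like the libraries of the other groups. Il1b followed the same libraries, at 515, 424 and 476 in WT and 485, 166 and 174 in KO (log2 difference -0.93, limma adjusted p = 0.0792), with -1.41 without KO replicate 1 and 0.04 without replicates 2 and 3.

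Without KO replicate 1 at 1 h 5 genes were called, Il1a, Il1b, Il1rn, Il18 and Nlrp3, all lower, beside 45.7% of all genes in that fit, and without KO replicates 2 and 3 none was, beside 2.15%. At Il18 all 3 KO libraries lay below WT at 1 h, as they did for 13.0% of all genes and for none of the other members: 605, 632 and 614 in WT and 498, 489 and 451 in KO (log2 difference -0.36, SE 0.12, limma adjusted p = 0.0461). Its difference was -0.39 without KO replicate 1 and -0.30 without replicates 2 and 3 (limma adjusted p = 0.027 and 0.55). The interaction was called for no gene at 1 h, beside 0.568% of all genes, or at 18 h, beside 0.630%, with 1 and 2 of the 9 genes at an unadjusted p under 0.05 by limma. Without KO replicate 1 at 1 h, the interaction at 1 h was called for Il1a, Il1b and Il1rn, beside 30.0% of all genes.

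At 18 h Il1rn alone was called, higher in KO, beside 3.25% of all genes. Around its upstream start it held 118, 151 and 117 in WT and 265, 283 and 302 in KO (log2 difference 1.09, SE 0.23, limma adjusted p = 0.0158), a call that was lost without replicate 2 of every group (limma adjusted p = 0.101) and without replicate 3 of every group (limma adjusted p = 0.258), and kept without any 1 of the KO libraries at 18 h. All 3 KO libraries lay above WT at the upstream start, as for 6.37% of all genes. Around its downstream start, at base 24345371 of chromosome 2, it held 345, 372 and 329.9 in WT and 265, 283 and 333 in KO (log2 difference -0.25, limma adjusted p = 0.384). In WT the regions at the upstream start were 3.60 to 4.79 kb long, and in KO a single region of 15.5 to 23.0 kb spanned both starts, so tags were shared out between them. Over the whole merged region, chr2:24332549-24361354, the level was 924 to 973 in WT and 1092 to 1334 in KO, a log2 difference of 0.34 (limma adjusted p = 0.202, and 0.41 with 0.17 without KO replicate 1). Without KO replicate 1 at 18 h, Il1rn (1.13) and Il18 (0.33) were called higher, beside 4.77% of all genes. Casp4 held 789, 756 and 778 in WT and 927, 923 and 948 in KO near its start at 18 h, without overlap and not called (log2 difference 0.27, adjusted p = 0.137 by limma, and 0.27 with 0.162 without KO replicate 1 at 18 h). The KO values are the mean density of the region shared with Casp1, while the WT regions at the Casp4 start were 6.25 to 7.67 kb long. Without KO replicate 1 at 1 h, which enters the shared estimate of the spread, this difference was called (limma adjusted p = 0.0189, beside 9.29% of all genes).

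**Figure D4:**
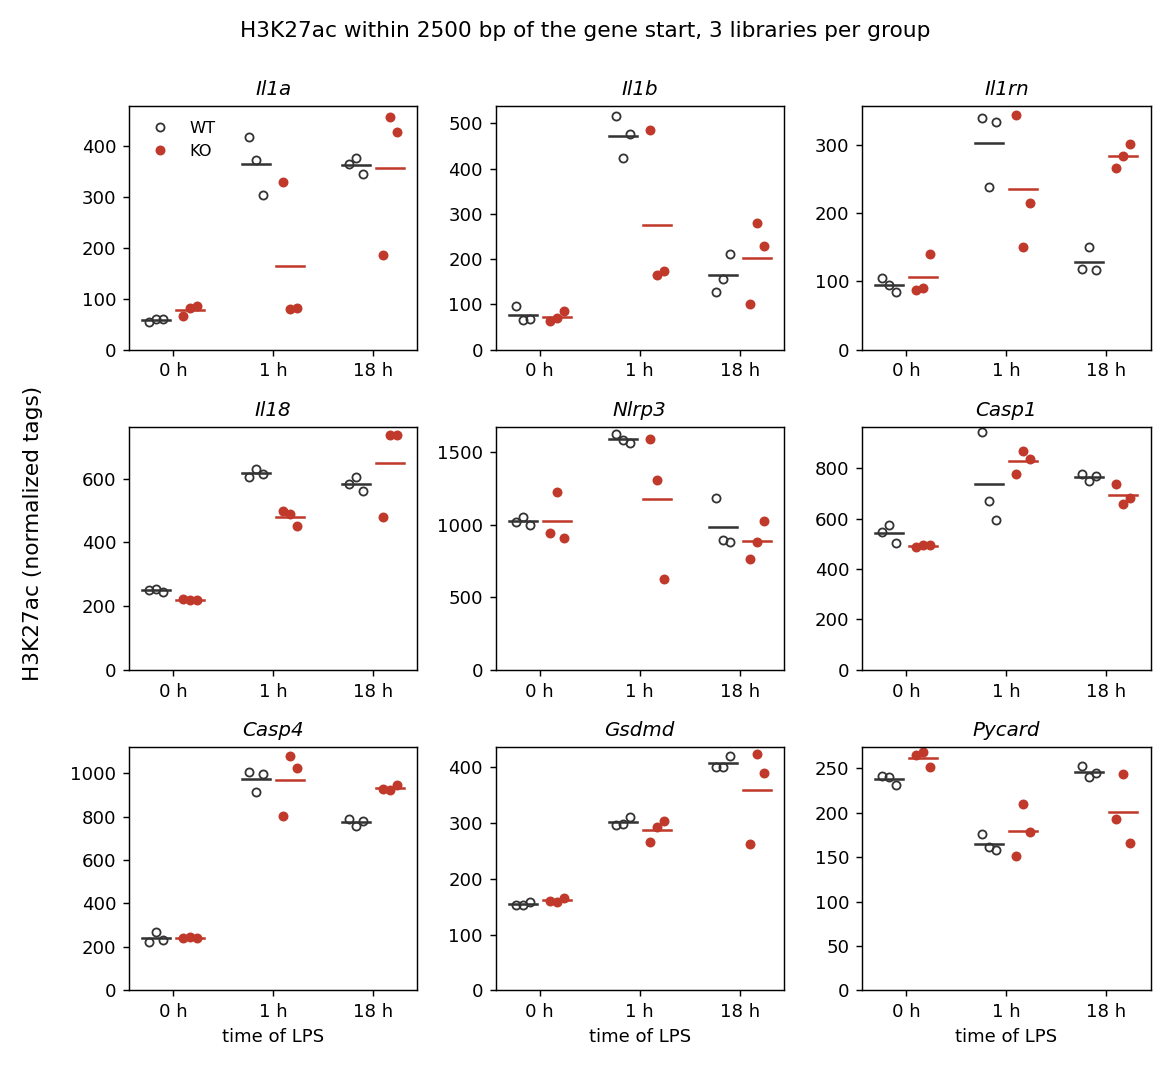
H3K27ac within 2500 bp of each gene start (normalized tags) by hours of LPS, with open points for WT libraries, filled points for KO libraries and a line at each group mean of 3 libraries. At 1 h 1 KO library lies with WT at Il1a and Il1b and the other 2 lie below, and at 18 h the 3 KO libraries of Il1rn lie above WT.

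Regions merged over the 18 libraries of an antibody and lying within 20 kb of the 9 genes gave levels that do not depend on a gene window. At 18 h 13 of 24 tested Pol II regions were called between the genotypes, 8 higher and 5 lower in KO, beside 30.0% of all regions; at 1 h 12 of 21 were, beside 51.8%. The Il1b region, chr2:129359484-129377019, held a mean of 293 in WT and 511 in KO at 18 h (log2 difference 0.78, limma adjusted p = 1.6e-05). Upstream of Il18, at chr9:50545767-50547250, a Pol II region was listed at 5.81 to 17.1 in the KO libraries and at 0 in all WT libraries at 18 h. H3K27ac was listed over the same stretch, chr9:50545598-50548836, at 28.1 to 33.4 in KO and 0 in WT at 18 h. It was listed at 7.49 to 23.0 in WT and 0 to 24.1 in KO at 1 h, and at 0 in both genotypes at 0 h. The Pol II and the H3K27ac region upstream of Il18 entered the comparison at 18 h only through the KO libraries. They are among the called regions counted here, but no test of them is given. The Nlrp3 gene lay downstream of a region, chr11:59524622-59530135, with less H3K27ac in KO at 18 h (465 to 466 in WT and 233 to 366 in KO, log2 difference -0.57, limma adjusted p = 0.0143, and -0.37 with 0.0149 without KO replicate 1).

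Of the H3K27ac regions 10 of 33 were called at 1 h, 8 of them lower in KO, beside 34.0% of all regions, and 4 of 30 at 18 h, beside 10.7%. Leaving out KO replicate 1 at 1 h gave 18 of 33 called, 12 of them lower, beside 58.3% of all regions, and without KO replicates 2 and 3 at 1 h 2 of 37, beside 4494 of 40848 regions in all, both of them weak regions of up to 18.3 tags in the lone KO library. At 18 h 5 of 30 were called without KO replicate 1, beside 14.1%. The region over Pycard, chr7:127987431-127995043, held 404 to 419 in WT and 202 to 300.4 in KO at 18 h (log2 difference -0.64, limma adjusted p = 0.0015, and -0.46 with 5.06e-05 without KO replicate 1), which like the Pol II there was lower in KO. The region over the starts of Casp1 and Casp4, chr9:5296881-5314636, held a mean of 2561 in WT and 3109 in KO at 18 h (log2 difference 0.28, limma adjusted p = 0.0298, and 0.24 with 0.0436 without KO replicate 1), higher in KO like the Pol II. Within 2500 bp of the Casp1 start the direction was the opposite, at 775, 747 and 769 in WT and 736, 658 and 683 in KO. That difference was not called (-0.14, limma adjusted p = 0.562). The KO values there are the mean density of the region shared with Casp4.

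The rest of the pathway was read from lists of 35 further genes, which were chosen with earlier results of these data known. At 18 h none of these was called higher in KO in Pol II, beside 21.1% of all genes called, 35.9% of those higher. Among 10 other inflammasome sensors 8 were tested and 3 were lower: Aim2, the sensor of cytosolic DNA, at 3552 in WT and 1672 in KO (log2 difference -1.08, limma adjusted p = 2.23e-08), and Nlrp1b at 193 and 45.5 (-1.89) led these. Among 10 regulators and cell death effectors 3 of 10 tested were lower, with Txnip, a binding partner of NLRP3, at 1884 in WT and 998 in KO (-0.91). Of the receptors and binding proteins 5 of 9 were tested and none was called. The lists' medians at 18 h were -0.36 for sensors, -0.03 for regulators and 0.09 for receptors, beside -0.10 over all genes. Nlrp1a and Nlrp1b, and the Naip genes, are near-identical copies whose reads may be split between them.

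Before LPS 3 of 8 tested receptor genes were called higher in KO, beside 6.97% of all genes called and 60.8% of those higher: Il18r1, a chain of the IL-18 receptor, at 1.89 in WT and 17.8 in KO, Il1rl1, the IL-33 receptor, at 37.0 and 57.7, and Il1r1, the signalling receptor of IL-1, at 77.4 and 106. The WT level of Il18r1 lay near 0, so its call and its place in this count rest on the KO libraries. At 1 h 3 of 4 tested receptor genes, 3 of 8 sensors and 5 of 10 regulators were called higher in KO, and 1, 0 and 1 lower. Of the 6 other IL-1 family ligands Il33 alone was tested in Pol II at 1 h and was higher (0.64, limma adjusted p = 0.00976). These counts stand beside 45.8% of all genes called and 83.7% of those higher. Il1r1 then stood at 60.5 in WT and 142 in KO (log2 difference 1.11, limma adjusted p = 2.1e-06), and the decoy Il18bp at 99.0 and 83.2 (-0.23, limma adjusted p = 0.031). In WT at 1 h, where 87.0% of all genes were called and 21.3% of those were higher, 5 of 7 tested receptor genes fell and none rose, 5 of 8 sensors fell and 2 rose, and 7 of 10 regulators fell and 3 rose. At 18 h against 0 h in WT, where 66.6% of all genes were called and 49.96% of those were higher, 6 of 8 sensors rose and 2 fell, 2 of 7 receptors rose and 4 fell, and 6 of 10 regulators rose and 4 fell.

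Across the 18 Pol II libraries, 11772 genes were ranked by the likeness of their log2 values to each of 8 members, Pycard left out, as a description over libraries that share genotype and time. Closest to Il1a was Cybb (r = 0.997), to Il1b Nfkbie (0.995), to Nlrp3 Ppfibp1 (0.997) and Cxcl2 (0.997), to Casp4 Rnf19b (0.998), to Casp1 Fkbp9 (0.990), to Il18 Tagap (0.992) and to Gsdmd Slfn3 (0.989). Of these 8 genes Il1rn had the least close match, Tmtc2, at 0.9703.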

How the data were processed

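The deposited files hold, per the labels and the study's methods, regions that the authors found in each library with HOMER (version not given in the sources used here) after alignment with HISAT2 2.1.0 to mm10. Windows of 500 bp passed a Poisson p of 0.001, were joined within 1000 bp and used no input control. The value used is a signal, the normalized tags of a region as deposited. Stretches outside a region were set to 0.

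Tags were shared out by overlap over gene bodies with 500 bp flanks (Pol II) and 2500 bp around starts (H3K27ac), on mm10 gene models (GENCODE vM21). limma 3.58.1 in R 4.3.3 was fitted to log2(normalized tags + 10) over the 6 groups of an antibody. Genes above 0 in at least 2 of 3 libraries of a compared group were tested, with Benjamini-Hochberg adjustment over all genes tested and a threshold of 0.05. Rows of 54 duplicated symbols were left out. The fits were tested on simulated data. Python 3.11.15, pandas 2.3.3, numpy 2.4.6 and matplotlib 3.10.9 were used. Depth limits which weak regions are listed.

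Members and lists were chosen with earlier results of these data known. Named were the 9 genes, the called list genes with the largest changes (up to 4 in each direction), and, by the rule, the 3 genes of closest Pol II pattern for each, of which the closest are given. Some items are not reported here.
The alternatives were other pseudocounts, scalings, windows, filters, subtraction of the input, left-out replicates and libraries, the replicate number as a block, smaller fits, merged regions and another Il1rn start. The merged regions, with and without the H3K27ac libraries that stood apart, the fit without KO replicates 2 and 3 at 1 h and the other Il1rn start were chosen after seeing the data.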

Additional observations from a re-analysis of the deposited data

Results flagged for a closer look

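The change of Pol II from 0 to 18 h of LPS differed between the genotypes, by the interaction term of limma, at 7 of the 9 genes, beside 14.8% of all genes tested. The KO change minus the WT change on the log2 scale was 1.25 for Il1b, 0.87 for Il1rn, 0.77 for Il18, 0.43 for Casp4, 0.35 for Casp1, 0.29 for Nlrp3 and -0.42 for Pycard. From 0 to 1 h it differed at Il1rn, by 0.47. The call was lost under 8 of 15 alternatives for Il18, whose level at 0 h lay below input, under 6 of 15 for Casp1, 4 of 15 for Nlrp3 and for Il1rn at 1 h, 3 of 15 for Pycard and Casp4, 2 of 15 for Il1rn at 18 h and 1 of 15 for Il1b. Within 500 bp of the start of Il1rn the value at 18 h was -0.12 (limma adjusted p = 0.919), with a KO level at 0 h that was the mean of a region over the whole gene. The 18 h levels of Casp1 and Casp4 come from the same region, their 0 h levels do not wholly, and those of Pycard come from a region that reaches far beyond the gene.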

How the results depend on the processing

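Over the 9 genes, 112 single values were called and 86 not. Recomputed under the alternatives, the called ones kept direction and call in 1611 cases, fell short of the threshold in 175 and reversed in 12, and those not called gained a call in 103 of 1521. The counts below are genes called of 9; the cause of each move was not tested. Pol II libraries centred on their median gave 2 at 0 h and 6 at 1 h between the genotypes and 3 for the interaction at 1 h, and quantile normalization gave 3, 5 and 3. Centring reversed Pycard in WT from 0 to 1 h (0.26), Il18 and Gsdmd in WT from 1 to 18 h (-0.28 and -0.30; quantile -0.12 and -0.11) and Casp1 and Casp4 in KO (-0.22 and -0.22). The narrow Pol II window at the start gave 0, 1 and 3 between the genotypes at 0, 1 and 18 h and 0 and 1 for the interactions at 1 and 18 h. In that window Il1rn reversed in KO from 0 to 18 h (-0.83) and in the interaction at 18 h (-0.12). Its KO start at 0 h took the mean of a region over the whole gene. Il1a and Il1b in that window at 18 h were 0.63 and 0.66 and not called (limma adjusted p = 0.0728 and 0.099). Input subtraction gave 2 at 0 h and 2 for the interaction at 1 h. No filter gave 0 at 0 h, as did fitting only the groups compared. The largest merged region gave 2 at 0 h and 5 at 1 h. A log2 change over 1 left 0, 0 and 0 between the genotypes, 5 in WT at 1 h, 4 and 4 from 1 to 18 h in WT and KO, and 0 and 1 for the interactions.

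For H3K27ac between the genotypes at 1 h, the narrow window gave 1, no filter 0, a log2 change over 1 1, the replicate block 1, only the groups compared 0 and the merged region 4. At 18 h input subtraction gave 2, no filter 0, the merged region 3 and the downstream start of Il1rn 0, where Il1rn reversed (-0.25). At 0 h only the groups compared gave 1. A log2 change over 1 left 5 in WT at 1 h, 2 in WT from 1 to 18 h, and 4 in KO at 1 h. In KO from 1 to 18 h input subtraction gave 4, no filter 1, a log2 change over 1 1, only the groups compared 0 and the merged region 4, with Il18 at -0.18; the merged region also gave 1 for the interaction at 18 h and 0.0039 for Casp4 in WT from 1 to 18 h.

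Leaving out KO libraries at 1 h, the H3K27ac regions near the 9 genes called at 1 h ranged from 2 to 18. Leaving out replicates or single libraries, the H3K27ac counts ranged from 0 to 1 at 0 h, 0 to 6 at 1 h and 0 to 3 at 18 h between the genotypes, 7 to 9, 4 to 6 and 4 to 7 for WT and 7 to 9, 6 to 8 and 0 to 6 for KO (1 against 0 h, 18 against 0 h, 18 against 1 h), and 0 to 4 and 0 to 1 for the interactions at 1 and 18 h. The Pol II counts ranged from 0 to 3, 1 to 3 and 5 to 7 between the genotypes, 0 to 1 and 3 to 5 for the interactions and 7 to 8 from 1 to 18 h in each genotype; all other LPS counts were 9. Replicate numbers did not pair the libraries (mean correlation of same-numbered deviations 0.00915 in Pol II and -0.0265 in H3K27ac, over 0.1 in 1 and 0 of 45 pairs); with the replicate block the interaction of Casp1 at 18 h was not called (limma adjusted p = 0.059). Regions too weak to be listed count as 0, so differences near the threshold of listing, as at Il18, cannot be told from differences in what was listed.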
